A study of Caenorhabditis elegans with 6 samples.

Results

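Aminoacyl-tRNA synthesis genes encode the enzymes that load amino acids onto their transfer RNAs before translation. The members were the genes with values in all 6 libraries whose deposited KEGG pathway annotation names aminoacyl-tRNA biosynthesis (ko00970), tRNA genes left out. This gave 48 genes of 45729 with values. By the deposited best protein matches and the gene names, 17 encode synthetases of the cytosol, 4 synthetases that serve the cytosol and the mitochondrion, 13 mitochondrial synthetases and 4 other enzymes of the pathway. The other 10 are further gene models that carry the annotation of a synthetase; 8 of them overlap a synthetase gene on the same strand and 2 lie near cars-1, the cysteine enzyme gene. None of the members lies on the X chromosome.

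The libraries were made from whole Caenorhabditis elegans of the wild-type strain N2, grown on plates with Escherichia coli OP50 and collected at an age of 6 days. D-mannose was given to the worms of 3 libraries and water to those of the other 3. The sources used here give no dose. No source states whether the replicates were separate cultures, so p-values measure the spread between these samples, which may be technical.

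Each synthetase recognises 1 amino acid and its transfer RNAs, so every amino acid needs its own enzyme, and translation in the cytosol and in the mitochondrion mostly draws on separate sets of them. In the worm many of the enzymes come as a pair of genes, 1 for each compartment. Synthetases fall into classes I and II by the fold of their catalytic domain. Uncharged transfer RNA is sensed by the kinase GCN2, which slows translation initiation.

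The libraries held 39893751 to 46043413 read equivalents, and 17819 to 18509 genes had a value above 0. Values are FPKM, fragment counts relative to gene length and to a library size. The size implied by the values was not the number of read equivalents. It was 37995594 in mannose 1 and 38610905 in water 3, below their 42683206 and 46043413 read equivalents. In the other 4 libraries it was above, as in mannose 3 with 49385919 against 43740801. Values in mannose 1 and water 3 are thus raised relative to scaling by read equivalents. No source used here states how this size was set. In a gene of 1 kb a single read stood for 0.0202 to 0.0263 FPKM, depending on the library. Over 11237 tested genes, the Spearman correlation was 0.940 to 0.987 for libraries of the same group and 0.933 to 0.985 for libraries of different groups. Mannose 1 and water 3 stood apart from the other 4 libraries. Of 18 oocyte markers, all tested, 16 had their 2 highest values in these libraries, against 28.6% of all tested genes. The summed FPKM of these markers ran from 3574 to 8836 in mannose and from 3849 to 9781 in water. No oocyte marker was at 0 in any library. Of 11 germline markers, 5 had mannose 1 and water 3 as their 2 highest libraries and 3 as their 2 lowest. Of 29 tested major sperm protein genes, 21 had them as their 2 highest. With upper-quartile scaling the count was 14 for the oocyte markers and 5 for the sperm genes, against 20.3% of all tested genes. Of the 29 sperm genes, 28 had a lower fitted value in mannose (median log2 difference −0.56). They had a summed level of 987 to 1854 FPKM in mannose and 1625 to 2506 in water, none at 0 and 0 called. The 4 muscle markers and both tested hypodermis markers also had lower fitted values in mannose, with median log2 differences of −0.38 and −0.47, and 0 were called. The muscle sum was 431 to 655 FPKM in mannose and 603 to 709 in water, the hypodermis sum 2082 to 2462 and 2714 to 3237. The 2 hypodermis markers had mean levels of 1.27 and 2615 FPKM, so their sum is in effect that of 1 gene. All 4 tested neuron markers had higher fitted values in mannose (median log2 difference 0.12). Of the 4 intestine markers 2 were higher and 2 lower. The part of these markers in the members' differences was not tested. For the members, counts by direction, counts of non-overlapping groups and medians are given with and without mannose 1 and water 3. In whole worms, fewer cells of a type and less RNA per cell cannot be told apart.

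The transcripts of the cytosolic synthetases ranged widely in level from one amino acid to the next. Of the 48 members, 41 had at least 1 FPKM in at least 3 libraries and were tested. The 7 others, all of them further models, had at most 0.831 FPKM in any library. They are Y23H5A.8, F40E3.11 and 5 models that lie inside the gene fars-2 (Y60A3A.37 to Y60A3A.41). The tested members were covered by 88.7 to 33359 read equivalents per library.

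The lysyl-tRNA synthetase gene kars-1 (chromosome II, 7070180 to 7072415, minus strand, WBcel235), which serves both compartments, had the highest mean level, 294.0 FPKM. It had 423, 300.0 and 196 FPKM in mannose 1, 2 and 3, against 203, 235 and 408 in water 1, 2 and 3. The highest libraries were mannose 1 and water 3, and the groups overlapped. The aspartyl-tRNA synthetase gene dars-1 (III, 9489176 to 9491215, minus strand) had 298, 285 and 240.1 FPKM with mannose, against 239, 260.1 and 280 with water. Its highest library was 1.25 times its lowest. The order of kars-1 and dars-1 was not stable, since kars-1 was the higher in 3 of 6 libraries.

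The next genes in level were nars-1 for asparagine, pars-1 for proline, sars-1 for serine and fars-3 for the beta subunit of the phenylalanine enzyme. The gene nars-1 (I, 7088025 to 7090418, minus strand) had 257, 258 and 199 FPKM with mannose, against 232, 248 and 247 with water. It lies within nduf-6 on the other strand, whose mean was 252 FPKM, and no source used here states whether the counting used strand. The gene pars-1 (III, 7239027 to 7241288, plus strand) had 206, 212 and 224 FPKM with mannose, against 219, 224 and 169.6 with water. Here mannose 1 and water 3 were the 2 lowest libraries.

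The gene sars-1 (IV, 10003726 to 10005599, plus strand) had 203, 187 and 176 FPKM with mannose, against 150.4, 158 and 159.6 with water. Every mannose value of sars-1 was above every water value. The gene fars-3 (II, 8464848 to 8467072, plus strand) had 160.3, 148 and 121 FPKM with mannose, against 122, 130.3 and 134 with water. The genes dars-1, nars-1, pars-1, sars-1, fars-3 and rars-1, for arginine, kept this order in all 6 libraries except that pars-1 was above nars-1 in 1 of them.

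Further down, neighbouring levels mostly could not be ordered. Of 37 neighbouring pairs among the 38 tested enzymes, the further models left out, 7 had the same order in all 6 libraries and 7 in 5 of 6. The lowest mean among the cytosolic enzymes, apart from fars-1, was that of the tryptophan enzyme gene wars-1, at 39.6 FPKM. The highest mean among the mitochondrial enzymes was that of the serine enzyme gene sars-2, at 83.4 FPKM, and 9 of the cytosolic or shared enzymes lay above it.

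The alpha subunit of the cytosolic phenylalanine enzyme was listed at a level far below that of its partner. The gene fars-1 (I, 6211981 to 6214645, minus strand) had 2.26, 4.54 and 1.95 FPKM with mannose, against 1.59, 3.18 and 1.25 with water. The enzyme is built from equal numbers of alpha and beta subunits, and fars-3 had 32.5 to 107.5 times the FPKM of fars-1. The deposited models mrpl-23 and ech-1.2 cover 97.8% and 84.1% of the span of fars-1 on the same strand. The model mrpl-23, named for a mitochondrial ribosomal protein, spans 3321 bases in the deposited tables and 616 bases in the RefSeq table for the same assembly, where it does not reach fars-1. It had 62.7, 64.1 and 70.8 FPKM with mannose, against 74.8, 70.2 and 62.4 with water. Which of these values belong to fars-1 was not tested, so the level of fars-1 is uncertain.

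Further synthetase genes share their locus with other deposited models. C29H12.2 spans 4131 bases and covers 97.9% of rars-2, the mitochondrial arginine enzyme gene, but 1630 bases and none of rars-2 in the RefSeq table. C25A1.20 covers most of iars-2, the mitochondrial isoleucine enzyme gene, with 4159 shared bases against 72 in the RefSeq table. The glycine enzyme gene gars-1 shares 99.6% of its span with T10F2.5, which had a mean of 59.4 FPKM. Of the 41 tested members, 14 overlap another expressed model on the same strand, by 0.59% of the span for mars-1 up to 99.8% for C25A1.20. Some of the other 27 overlap a model on the other strand. The gene cars-1 lies wholly within Y23H5A.12, and 94.4% of ears-2 lies over T07A9.14. Since the use of strand in the counting is not known, values of members with a large overlap on either strand are less certain.

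**Figure D1:**
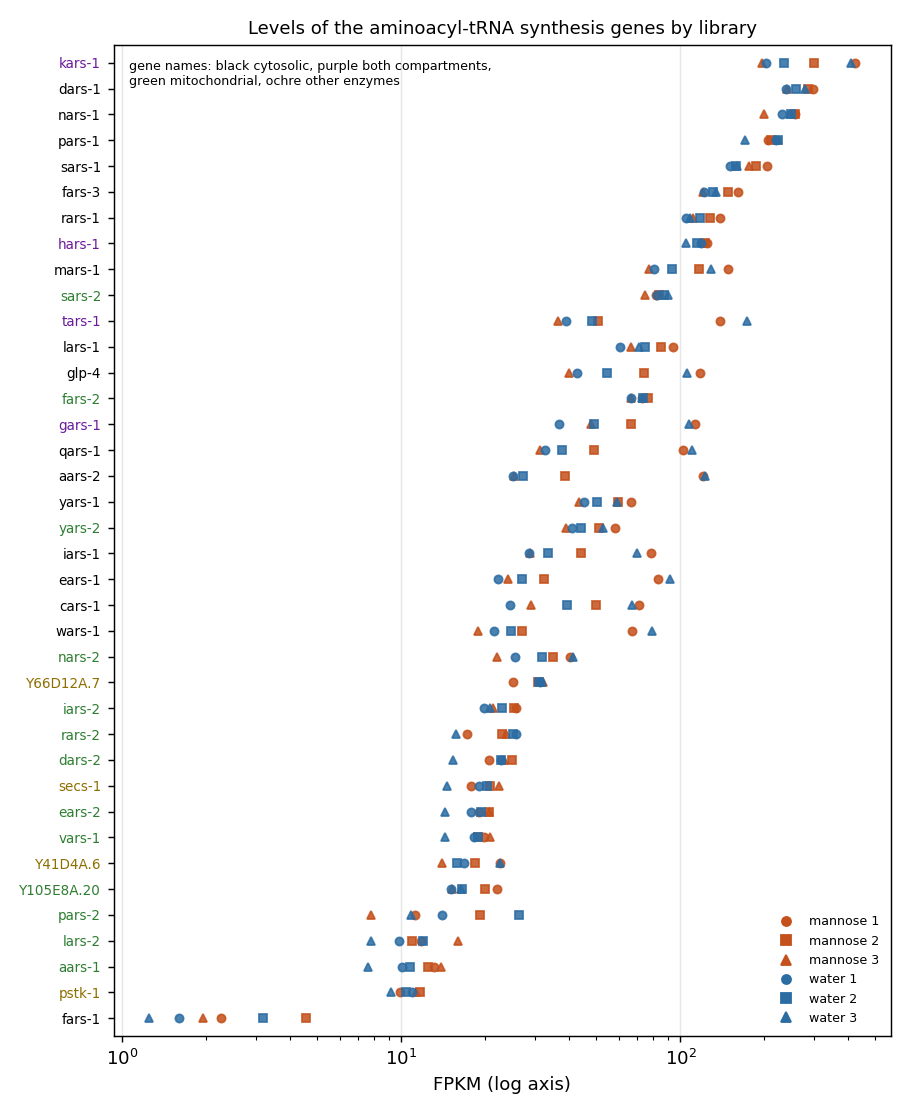
FPKM (log axis) of the 38 tested enzymes in each of the 6 libraries, ordered by mean level; circles, squares and triangles are replicates 1, 2 and 3, orange for mannose and blue for water, and the colour of a name gives the compartment. Enzymes such as aars-2 and tars-1 spread over more than 4-fold with mannose 1 and water 3 at the top, while dars-1 and hars-1 stay within 1.25-fold.

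The cytosolic enzyme had the higher level in all 12 amino acids for which the members include a separate gene for each compartment. The 2-subunit phenylalanine enzyme was left out. As listed, the cytosolic enzyme was higher in each of the 6 libraries. The median ratio of cytosolic to mitochondrial FPKM ran from 1.13 for tyrosine to 15.7 for proline, with a median over amino acids of 4.28. The proline ratio ran from 8.52 to 28.8, and pars-2, the mitochondrial proline gene, overlaps sygl-1 and T27F6.6 on its strand. The mitochondrial genes rars-2 and iars-2 likewise share most of their spans with C29H12.2 and C25A1.20. For isoleucine the ratio of iars-1 to iars-2 was as low as 1.35. How reads were divided between overlapping models is not known, so the order within these pairs is less certain. For aspartate, where neither gene has a same-strand overlap, the ratio of dars-1 to dars-2 ran from 10.3 to 18.3.

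The balance between compartments was steady for some amino acids and varied for others. The tyrosine enzymes yars-1 (I, 14476693 to 14486767) and yars-2 (IV, 4710861 to 4712553) kept a ratio of 1.11 to 1.17 although yars-1 varied 1.55-fold over the libraries. The serine pair sars-1 and sars-2 had ratios of 2.48, 2.23 and 2.36 with mannose, against 1.82, 1.81 and 1.77 with water. These ratios did not overlap between groups; the pair was singled out after its values were seen, and sars-1 alone also did not overlap. For alanine the ratio of aars-2, the cytosolic enzyme gene, to aars-1, the mitochondrial one, was 9.18 in mannose 1 and 16.1 in water 3, and it lay at 1.82 to 3.12 in the rest. The glutamate pair ears-1 and ears-2 had a ratio of 4.37 in mannose 1 and 6.41 in water 3, against 1.17 to 1.56 elsewhere. The compartment of ears-1 is less certain, since 1 deposited description calls its product mitochondrial while the deposited Swiss-Prot match is the cytosolic enzyme.

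**Figure D2:**
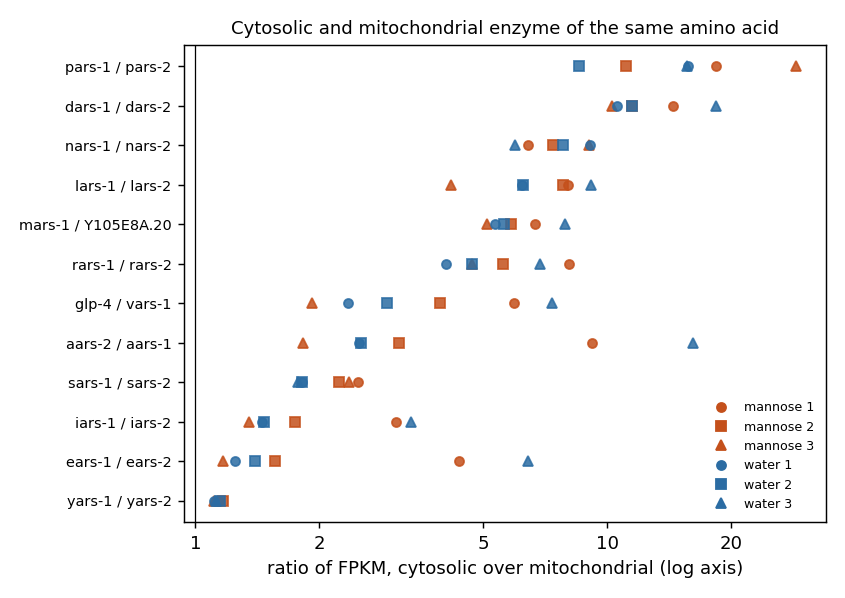
Ratio of the FPKM of the cytosolic gene to that of the mitochondrial gene for 12 amino acids (log axis), 1 point per library with symbols by replicate and colours by treatment. All points lie above 1, the tyrosine points fall within 1.11 to 1.17, and the alanine points reach from 1.82 to 16.1.

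The cytosolic enzymes differed in how much they varied between libraries. Over the 20 cytosolic or shared enzymes apart from fars-1, the highest library was 1.19 to 4.87 times the lowest. A ratio above 2, a limit set after the values were seen, was reached by 10 of these 20. Over all tested members it was reached by 13 of 41, a share near the 32.3% of all tested genes, and a ratio above 3 by 8 of 41, against 14.4%. Without mannose 1 and water 3 the ratio was above 2 in 1 of the 20, the cysteine enzyme gene cars-1 at 2.04, against 9.3% of all tested genes. The 10 were those for alanine, threonine, tryptophan, glutamate, glutamine, glycine, valine, cysteine, isoleucine and lysine. The members nearest the limit were kars-1 at 2.16 and the methionine enzyme gene mars-1 at 1.90. The other 10 were those for aspartate, asparagine, proline, serine, arginine, histidine, methionine, leucine, tyrosine and the beta subunit for phenylalanine.

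In all 10 wide-ranging genes mannose 1 and water 3 were the 2 highest libraries, and mannose 2 came next. These libraries were the 2 highest in 28.6% of all tested genes, in 56.4% of those with a ratio above 2 and in 15.3% of the rest. Since the 10 were chosen by their range over the same libraries, nothing is read from this count. Over the other 4 libraries the ratio was 1.40 to 2.04 in these 10 genes. The alanine enzyme gene aars-2 (I, 3983183 to 3986592, plus strand) had 119.99, 38.7 and 25.2 FPKM with mannose, against 25.03, 27.2 and 122 with water. The threonine enzyme gene tars-1 (II, 11691320 to 11695620, minus strand), which serves both compartments, had 139, 50.8 and 36.4 FPKM with mannose, against 38.9, 48.0 and 173 with water. Each group of 3 thus held a high library and a pair of low ones.

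The glutamate enzyme gene ears-1 (I, 10336395 to 10340897, plus strand) had 82.9, 32.3 and 24.1 FPKM with mannose, against 22.2, 27.02 and 91.6 with water. The tryptophan enzyme gene wars-1 (V, 18852704 to 18859221, minus strand) had 66.9, 26.95 and 18.8 FPKM with mannose, against 21.4, 24.6 and 78.96 with water. The gene gars-1 (III, 5159728 to 5163645, minus strand) had 113, 66.6 and 47.8 FPKM with mannose, against 36.6, 49.1 and 107.3 with water. The valine enzyme gene glp-4, known for a mutant that lacks a developed germline at high temperature, had 117, 74.03 and 39.8 FPKM with mannose, against 42.7, 54.7 and 105.3 with water. The groups overlapped in each of these genes.

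Of the 10 steady enzymes, a set fixed by the same choice, only mars-1 had mannose 1 and water 3 as its 2 highest libraries. The histidine enzyme gene hars-1, which serves both compartments, had 124, 122 and 120.4 FPKM with mannose, against 118, 115 and 104.4 with water, with water 3 the lowest. Summed over the 10 wide-ranging genes, levels were 1313, 732 and 477 FPKM with mannose, against 475, 576 and 1332 with water. Summed over the 10 steady genes they were 1696, 1601 and 1378 with mannose, against 1371, 1471 and 1461 with water.

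The rank of an amino acid's enzyme therefore depended on the library. Among the 20 enzymes, aars-2 ranked 11 and 9 in mannose 1 and water 3 and 17 or 18 in the other 4 libraries. The gene tars-1 ranked 9 and 4 in mannose 1 and water 3 and 13 or 14 in the others. The tyrosine enzyme gene yars-1 ranked 20, the lowest, in mannose 1 and water 3 and 11 to 13 in the others. The highest enzyme of a library was 6.35 and 6.87 times the lowest in mannose 1 and water 3 and 10.6 to 12.8 times in the other 4.

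**Figure D3:**
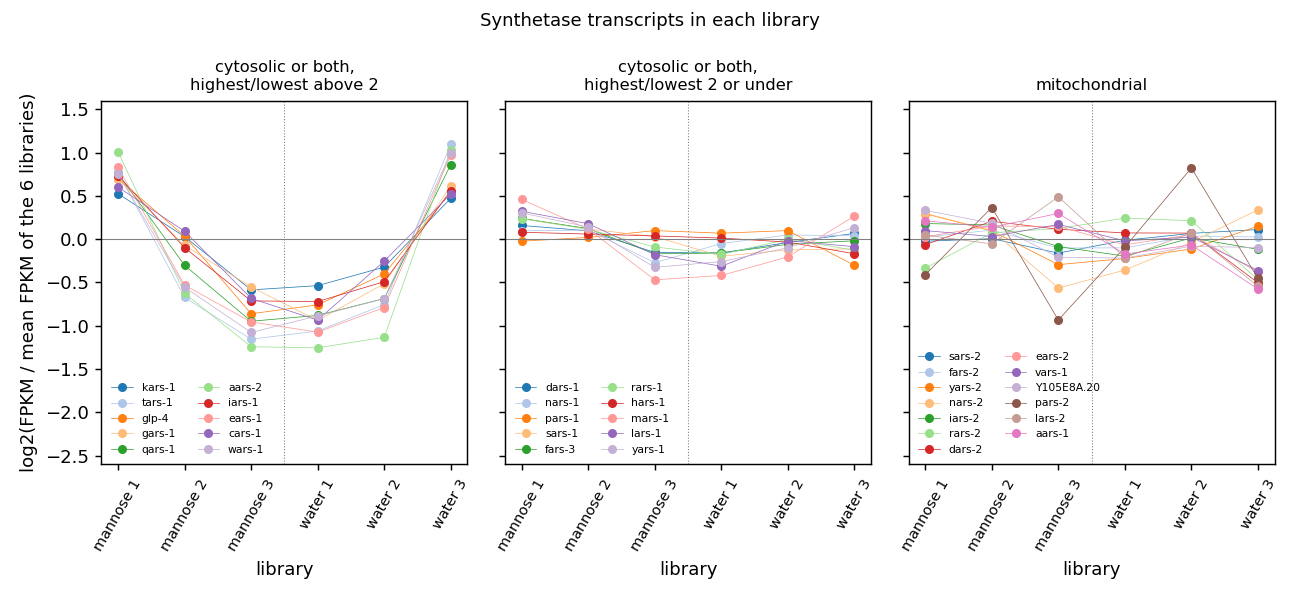
log2 of FPKM over the gene's mean FPKM in the 6 libraries, for the 10 wide-ranging cytosolic or shared enzymes, the 10 steady ones and the 13 mitochondrial ones; thin lines join the values of 1 gene and imply no order of libraries. The wide-ranging genes are highest in mannose 1 and water 3, while the steady genes vary less by the way the sets were made, and pars-2 is the mitochondrial gene that departs most.

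The wide-ranging and steady enzymes were set beside other features. The wide-ranging set had 6 enzymes of class I and 4 of class II, and the steady set 4 and 6. Enzymes whose mammalian counterparts sit in the multi-synthetase complex made up 4 of the wide-ranging and 5 of the steady set. The listed gene length had a median of 2774 bases in the wide-ranging set (2018 to 3790) and 1924 bases in the steady set (1667 to 3942). Over the 20 enzymes the Spearman correlation of length with the highest-to-lowest ratio was 0.60, and that of mean level, which comes from the same 6 values as the ratio, was −0.69. These are descriptions across genes that share the same 6 libraries, and genes are not independent replicates. Leucine's lars-1, the longest at 3942 bases, was among the steady genes, with a ratio of 1.55. The part of gene length in the spread was not tested.

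Over all cytosolic or shared synthetases, 11 of 21 had mannose 1 and water 3 as their 2 highest libraries. Among the mitochondrial synthetases it was 2 of 13. The count for the 21 was 11 with upper-quartile scaling and 10 with FPKM taken as a share of the library's sum, against 20.3% and 17.9% of all tested genes. The oocyte markers moved the same way, and their part in the synthetase levels was not tested.

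The compartments are set side by side by their medians in each library. On the log2(FPKM + 1) scale the median deviation of the 21 cytosolic or shared synthetases from their 6-library means was 0.50, 0.10 and −0.42 with mannose, against −0.37, −0.14 and 0.31 with water. The oocyte markers had 0.76, 0.13 and −0.68 with mannose, against −0.64, −0.29 and 0.74 with water. The 13 mitochondrial synthetases had 0.07, 0.13 and −0.08 with mannose, against −0.10, 0.04 and −0.32 with water, so their median deviation was lowest in water 3. Water 3 was the lowest library for 6 of the 13, against 24.1% of all tested genes, mannose 3 for 5 and water 1 for 2. Their summed FPKM was lowest in mannose 3, at 364, with 368 in water 1 and 379.8 in water 3.

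**Figure D4:**
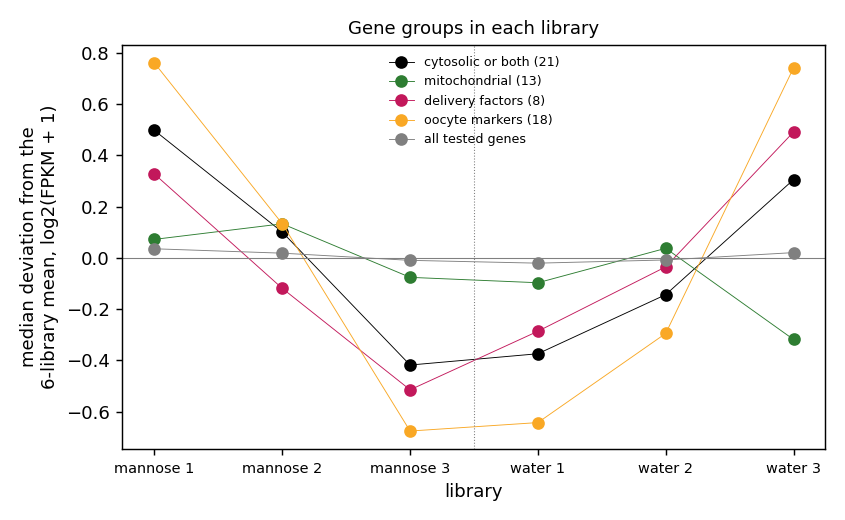
Median deviation from the 6-library mean, in log2(FPKM + 1), of the cytosolic or shared synthetases, the mitochondrial synthetases, the delivery factors, the oocyte markers and all tested genes in each library; thin lines join the points of 1 group and imply no order. The cytosolic synthetases reach 0.50 in mannose 1 and 0.31 in water 3, and the mitochondrial ones fall to −0.32 in water 3.

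Mannose and water were then compared to see whether synthetase transcripts differ when worms receive the sugar. No member was called: 0 of 41 passed a Benjamini-Hochberg adjusted p of 0.05 in the limma test over 11237 genes, where 0% of all tested genes were called, and limma-voom on read equivalents also called 0. At an unadjusted p under 0.05 there were 2 members, sars-1 and aars-1, both higher in mannose, against 4.73% of all tested genes (2.04% higher and 2.7% lower in mannose). The limma adjusted p of every member was 0.9999. The fitted difference was above 0 for 31 of 41 members, with a median log2 difference of 0.14, against 54.5% and 0.01 for all tested genes. Without both mannose 1 and water 3 the fitted difference was above 0 for 31 of 41. It was above 0 for 21 of 41 without mannose 1, 22 without water 1 and 36 without mannose 3. The median was 0.00086 without mannose 1, 0.01 without water 1, 0.26 without mannose 3 and 0.10 without both mannose 1 and water 3. With FPKM taken as a share of the library's sum it was 0.21, where the median of all tested genes was 0.07, and with upper-quartile scaling it was 0.08, where that of all tested genes was −0.03.

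The groups did not overlap in 4 members, all higher in mannose, against 10.7% of all tested genes in either direction and 5.42% with mannose above and 5.31% with mannose below. These were sars-1, hars-1, aars-1 and vars-1, the mitochondrial valine enzyme gene. Without mannose 1 and water 3 there were 9 such members, against 34.7% of all tested genes.

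For the cytosolic serine gene sars-1 the mannose mean was 189 ± 13.9 FPKM and the water mean 156 ± 4.98 FPKM (SD, n = 3 each). Its log2 difference was 0.27 (SE 0.10), with a 95% interval of 0.02 to 0.52 (limma adjusted p = 0.9999). It was 0.22 to 0.32 over the fits that left out 1 library and 0.23 without mannose 1 and water 3. Its mitochondrial partner sars-2 had 82.04, 83.7 and 74.6 FPKM with mannose, against 82.6, 87.4 and 90.1 with water, a log2 difference of −0.11 (SE 0.11).

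The mitochondrial alanine gene aars-1 (II, 11460205 to 11464497, minus strand) had 13.1, 12.4 and 13.9 FPKM with mannose, against 10.02, 10.8 and 7.57 with water. All mannose values were above all water values. Its log2 difference was 0.45 (SE 0.17), with an interval of 0.03 to 0.86 (limma adjusted p = 0.9999). It was 0.31 to 0.54 over the fits that left out 1 library and 0.31 without mannose 1 and water 3. The cytosolic alanine gene aars-2 had a log2 difference of 0.16 with an interval of −1.82 to 2.14, so that a change of 2-fold either way lay within it.

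Among the other members with the largest differences, the mitochondrial leucine gene lars-2 (I, 7457147 to 7460756, minus strand) had 11.7, 10.9 and 15.9 FPKM with mannose, against 9.79, 11.9 and 7.78 with water. Its groups overlapped, with a log2 difference of 0.36 (SE 0.22), which was 0.20 without mannose 3 and 0.21 without water 3. The difference of fars-1 was 0.38 (SE 0.33), and 0.10 without mannose 2, 0.19 without water 3 and 0.64 without water 2, and that of gars-1 was 0.30 (SE 0.48). The model C25A1.20, over iars-2, had 12.9, 14.2 and 10.65 FPKM with mannose, against 10.8, 10.2 and 9.50 with water, a log2 difference of 0.27 (SE 0.16). The 95% interval of each of these 4 differences included 0.

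Lower values in mannose were rarer. The mitochondrial proline gene pars-2 (I, 12486944 to 12490890, plus strand) had 11.2, 19.1 and 7.78 FPKM with mannose, against 13.9, 26.3 and 10.9 with water. In both groups replicate 2 was the highest. Its log2 difference was −0.39 (SE 0.43), −0.04 without water 2 and −0.71 without mannose 2. The gene tars-1 had a difference of −0.11 (SE 0.72). Y66D12A.7, which matches subunit C of the amidotransferase that forms glutaminyl-tRNA in mitochondria, had 25.2, 30.9 and 32.04 FPKM with mannose, against 31.4, 31.2 and 31.8 with water. Mannose 1 was the low library, and the log2 difference was −0.10 (SE 0.14).

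The 4 other enzymes of the pathway had means of 10.5 to 30.4 FPKM, where the median over all tested genes was 13.8. Each varied at most 1.62-fold over the libraries. Y41D4A.6, which matches subunit A of the same amidotransferase, had 14.0 to 22.6 FPKM. The genes pstk-1, for the kinase that phosphorylates seryl-tRNA for selenocysteine, and secs-1, for the enzyme that then makes selenocysteine, had means of 10.5 and 19.1 FPKM. For pstk-1 the values were 9.87, 11.7 and 11.2 FPKM with mannose, against 10.9, 10.3 and 9.20 with water. Both pstk-1 and secs-1 had mannose 1 and water 3 as their 2 lowest libraries, as did 21.5% of all tested genes.

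For the other members named for a high level, a wide range or a low level, the 95% interval of the difference included 0. The log2 difference was 0.12 (SE 0.37) for kars-1, 0.08 (SE 0.13) for dars-1, −0.04 (SE 0.13) for nars-1, 0.08 (SE 0.14) for pars-1 and 0.14 (SE 0.14) for fars-3. It was 0.07 (SE 0.68) for ears-1 and −0.10 (SE 0.65) for wars-1, whose intervals ran from −1.58 to 1.73 and from −1.69 to 1.499. For pstk-1 it was 0.10 (SE 0.15).

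By compartment, 18 of 21 cytosolic or shared synthetases had a higher fitted value in mannose, their median log2 difference being 0.14, and 9 of 13 mitochondrial ones, with a median of 0.18. The cytosolic median was −0.06 without mannose 1, −0.03 without water 1, 0.38 without mannose 3, 0.34 without water 3 and 0.15 without both mannose 1 and water 3. The mitochondrial median was 0.11 to 0.23 over the fits that left out 1 library and 0.09 without both. Over the fits that left out 1 library, 8 to 21 of the 21 cytosolic or shared synthetases were higher in mannose. Among the 13 mitochondrial ones it was 8 to 10. Without both mannose 1 and water 3 the counts were 17 and 9. Standard errors were 0.37 to 0.81 for the 10 wide-ranging enzymes and 0.10 to 0.29 for the 10 steady ones. Since these sets were chosen by their range over the same libraries, nothing is read from this difference in standard errors. The half-width of the 95% interval had a median of 0.82 for cytosolic or shared synthetases, 0.43 for mitochondrial ones and 0.44 for all tested genes.

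**Figure D5:**
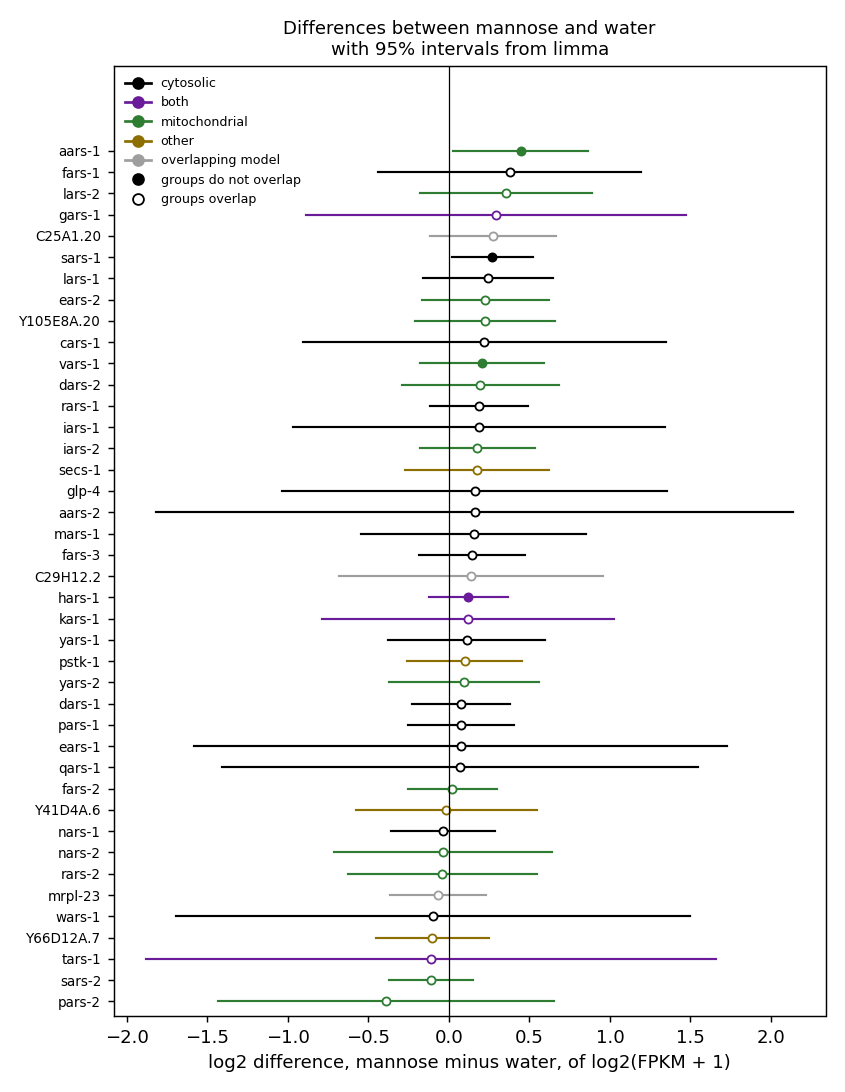
Log2 difference between mannose and water on the log2(FPKM + 1) scale for the 41 tested members, with 95% intervals from limma; colours give the compartment and filled points mark the 4 members whose groups do not overlap (the grey colour is for the further models). Intervals are widest for aars-2, tars-1 and ears-1, and the intervals of sars-1 and aars-1 alone lie above 0 without adjustment over genes.

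The genes next to the synthetases in translation were described from lists. Of 8 factors that deliver charged transfer RNA to the ribosome, 0 were called and 2 had a higher fitted value in mannose (median log2 difference −0.16). Their median deviation was highest in mannose 1 (0.33) and water 3 (0.49). The elongation factor gene eef-1A.1, whose product carries the charged transfer RNA, had 5942, 2669 and 2303 FPKM with mannose, against 2799.6, 2977 and 9033 with water. Its mitochondrial counterpart tufm-1 had 228, 195 and 136 FPKM with mannose, against 137, 166 and 200.1 with water. Of the delivery factors 5 of 8 had mannose 1 and water 3 as their 2 highest libraries, and with upper-quartile scaling 3.

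Of 19 tested genes of tRNA processing and modification, 0 were called, 11 were higher and 8 lower in mannose, and the median log2 difference was 0.01. The methyltransferase gene nsun-2 had 61.8, 32.1 and 17.7 FPKM with mannose, against 19.4, 25.8 and 68.8 with water, with mannose 1 and water 3 again on top. The CCA-adding enzyme gene hpo-31, whose product completes the transfer RNA end that receives the amino acid, had 65.4, 75.02 and 86.1 FPKM with mannose, against 86.5, 79.98 and 62.4 with water. Here mannose 1 and water 3 were the 2 lowest.

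Of 6 tested genes of the stress response that acts on translation initiation, which uncharged transfer RNA sets off through gcn-2, 0 were called and 4 had a higher fitted value in mannose (median log2 difference 0.20). The sensor kinase gene gcn-2 had 6.04, 2.18 and 1.62 FPKM with mannose, against 1.38, 1.28 and 6.13 with water. Its partner gene gcn-1 had 15.2, 4.01 and 3.87 FPKM with mannose, against 4.35, 3.92 and 22.9 with water. Both were thus highest in mannose 1 and water 3. The transcription factor gene atf-4, which acts downstream of the kinase, had 52.4, 51.1 and 65.8 FPKM with mannose, against 46.3, 53.01 and 47.5 with water, and its highest library was 1.42 times its lowest. The gene pek-1 encodes the kinase that starts the same response to stress in the endoplasmic reticulum and not to uncharged transfer RNA. Its groups did not overlap, with 8.62 to 11.2 FPKM in mannose and 5.67 to 7.01 in water. Its unadjusted limma p was 0.010 and its adjusted p 0.9999. Such genes were 1 of these 6, 1 of the 8 delivery factors and 1 of the 19 processing genes, against 10.7% of all tested genes. The others were eef-1A.2, lower in mannose, and mtcu-2, higher in mannose.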

How the data were processed

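RNA of whole worms was sequenced in 6 libraries, 3 per group. Per the submitters' processing notes, cutadapt, FastQC and HISAT2 2.1.0 were used with build WBcel235; no source used here names the counting tool. The deposited values are FPKM, read so from the values themselves. Each library's FPKM, multiplied by gene length, rose in equal steps, taken as single reads: 95.0% to 95.8% of values worth up to 20 reads came within 0.05 of a whole number. These steps gave read equivalents. For FPKM the test set in advance was limma, and no count test was used as the main result.

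Genes with at least 1 FPKM in at least 3 libraries were tested with limma 3.58.1 (trend, robust, R 4.3.3) on log2(FPKM + 1), a scale that understates changes of low genes, with Benjamini-Hochberg adjustment over all genes at 0.05. The fit was checked on simulated data with independent libraries and 1 spread for all genes. The real libraries differ from this, since the deviations of mannose 1 and water 3 from their group means correlated at 0.77 over genes. Nothing about these libraries is therefore read from the check. Members and lists were chosen with earlier results of these data known. Compartments (from the deposited protein matches and background knowledge), synthetase classes, complex membership, the class of further models, the range limit of 2 and the count of genes highest in mannose 1 and water 3 were set after values were seen. Named with all values were the 6 highest members, the 4 largest differences in each direction, the 4 smallest p, the 4 widest ranges and the 2 lowest levels; further members are named as examples. Positions are those of the deposited tables; 42 of 48 members matched the RefSeq gene table by locus tag, and 15 had the same span there. Of the lists, 1 of 20 processing genes was not matched. Of the markers, all 11 germline, 4 intestine and 4 muscle genes, 29 of 31 msp genes, 2 of 3 hypodermis and 4 of 5 neuron genes passed the filter, and 0 were called.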

Additional observations from a re-analysis of the deposited data

How the results depend on the processing

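No member was called under any of the alternatives fitted with limma. FPKM as a share of the library's sum was used for medians and counts alone and was not fitted. Over all genes, limma called 0, and 3 without mannose 1 and water 3, 0 to 2 over the fits that left out 1 library (2 without mannose 1), and 0 under the others. The number of members whose groups did not overlap was 5 to 14 with 1 library left out. The share of all tested genes was then 15% to 24.9%, and these ranges do not run in parallel. Without mannose 3 there were 14 such members, against 24.1% of all tested genes, and without water 3 there were 5, against 24.9%. The number was 9 without both mannose 1 and water 3 (34.7%), and 3 with upper-quartile scaling (9.02%). Under that scaling sars-1 and aars-1 were above, sars-2 was below, and hars-1 and vars-1 overlapped. Of the 20 cytosolic enzymes 1 had a ratio above 2 without mannose 1 and water 3, an alternative chosen after the data were seen. With 1 library left out the median log2 difference was 0.00086 to 0.26 for all members, −0.057 to 0.38 for cytosolic or shared synthetases and 0.11 to 0.23 for mitochondrial ones. Without members that overlap another expressed model on the same strand, the median of the remaining members was 0.12. Single genes changed sign in places: without mannose 1 and water 3, pars-1 had −0.024 and Y66D12A.7 had 0.0076, and the cause was not tested. Over the fits that left out 1 library the difference ran from −0.15 to 0.42 for kars-1, −0.099 to 0.088 for nars-1, −0.052 to 0.15 for pars-1, −0.67 to 0.55 for tars-1, −0.17 to 0.00086 for Y66D12A.7, −0.035 to 0.73 for gars-1, −0.44 to 0.69 for ears-1, −0.61 to 0.48 for wars-1 and −0.48 to 0.89 for aars-2. It kept its sign but ran from −0.71 to −0.043 for pars-2, 0.20 to 0.49 for lars-2 and 0.099 to 0.64 for fars-1. The share-of-sum scaling was chosen after the data were seen.

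With the replicate number as a block, limma called 0 genes and 0 members. The deviations of same-numbered libraries from their group means correlated at −0.74, 0.24 and −0.71 over genes, so the numbers are not read as pairs. Among tested members the lowest value was 88.7 read equivalents, for fars-1.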
